A study of Mus musculus with 12 samples.

Results

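The proteins of the large (60S) subunit of the cytosolic ribosome are encoded by a set of housekeeping genes, of which 45 were followed here in mouse myoblasts. They were taken by symbol from the 2 complete deposited tables and not by their measured values, with earlier results of these data known. They are 45 of the 13768 genes listed in either table. The wild-type table lists all 45 and the knockout table lists 43, Rpl29 and Rpl38 being absent from it. The cells were C2C12, an established line of mouse muscle precursor cells. The study compared RNA from purified polysomes with total cellular RNA, in wild-type cells and in cells labelled Ddx27-/-. Ddx27 encodes a nucleolar DEAD-box helicase that acts in the processing of ribosomal RNA precursors. The labels give 4 groups of fraction and genotype with 3 samples each, all from the same line, and name no drug, clone or separate cultures. The tables hold 11 libraries, with only 2 of knockout total RNA, and the knockout libraries are numbered here as in their table. The p-values therefore measure the spread between these samples, which may be technical.

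Ribosomal protein mRNAs are among the most abundant messages of dividing cells, and their proteins are needed in fixed proportions. In vertebrates their mRNAs share a 5′ terminal oligopyrimidine (TOP) tract, a C at the cap followed by a run of C and U. Through this tract their loading onto polysomes is controlled together, with mTOR signalling and the RNA-binding protein Larp1 as regulators. In the subunit the proteins have different places: the P stalk recruits translation factors, the 5S particle joins during assembly, and others line the peptidyl transferase centre, the exit tunnel or the face towards the small subunit.

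The start of a transcript is where a TOP tract would lie, so the annotated starts of those genes that passed a test below are shown, with Rpl10, which had the lowest difference between polysomal and total RNA in the wild type, as far as RefSeq's promoter table holds them. The table, of build GRCm38.p6, had an entry for 34 of the 45 genes. Rpl3, Rpl7 and Rpl30 are not among them. Each line gives 30 bases of the transcribed strand, 10 before the annotated start and 20 from it on, and capitals mark the longest run of at least 5 pyrimidines that begins with C and starts within 10 bases of that position.
Rpl15 (chr14:18270967-18270996, minus strand): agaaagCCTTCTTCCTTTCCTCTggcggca
Rpl27a (chr7:109519185-109519214, plus strand): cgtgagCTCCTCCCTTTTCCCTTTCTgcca
Rpl35a, 1 of its 3 entries (chr16:33056472-33056501, plus strand): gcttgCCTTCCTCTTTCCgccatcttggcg
Rpl34, first entry (chr3:130730318-130730347, minus strand): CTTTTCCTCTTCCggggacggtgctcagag
Rpl34, other entry (chr3:130730379-130730408, minus strand): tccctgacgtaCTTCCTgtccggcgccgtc
Rpl5 (chr5:107900518-107900547, plus strand): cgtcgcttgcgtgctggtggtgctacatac
Rpl23 (chr11:97782420-97782449, minus strand): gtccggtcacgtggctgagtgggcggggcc
Rpl10 (chrX:74270806-74270835, plus strand): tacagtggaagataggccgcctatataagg
Rpl15, Rpl27a and both entries of Rpl34 had such a run, Rpl35a had one at 1 of its 3 entries and none at the other 2, and Rpl5, Rpl23 and Rpl10 had none in this window. Of the 34 genes with an entry, 20 (58.8%) had a run at 1 or more of their entries, against 33.3% of all 27025 genes in the table. On the opposite strand the same search found a run for 26.5% of the 34 genes and for 37.4% of all genes. The search was defined after the tables had been seen, and an annotated start need not be the start used in these cells.

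Levels are given as normalised read counts, which the authors scaled separately for each genotype. Per kilobase of gene length, the 45 genes spanned in wild-type total RNA from 0.582 ± 0.245 (SD, n = 3) for Rpl29 to 2487 ± 56.0 for Rpl8, a protein beside the peptidyl transferase centre, with a median of 18.4. The order below Rpl8 was Rplp1 at 1496 ± 284 per kilobase, Rpl4 at 962 ± 45.1 and Rplp0 at 821 ± 122. Rplp1 was above Rpl4 by more than their spread, while Rpl4 and Rplp0 differed by about as much as the SDs. Rpl5 and Rpl11, which enter the ribosome together with the 5S ribosomal RNA, stood at 5.02 ± 1.38 and 1.61 ± 0.546 per kilobase. Rpl8 was also the highest per kilobase in the other 3 groups, at 4365 ± 1372 in wild-type polysomal, 4224 ± 1274 in knockout total (n = 2) and 3157 ± 1267 in knockout polysomal RNA. Not scaled by length, 14 of the 45 genes had a mean below 10 in wild-type total RNA, 16 lay between 10 and 100, and the other 15 were higher.

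These levels are uncertain for many of the genes, because ribosomal protein genes have many processed pseudogenes of near-identical sequence that can take their reads. RefSeq's annotation names 196 pseudogenes after 38 of the 45 genes, and 34 of them, named after 21 of the genes, are listed in the wild-type table. For 7 genes, Rpl3, Rpl9, Rpl10a, Rpl14, Rpl19, Rpl31 and Rpl38, the pseudogene rows held more counts in wild-type total RNA than the gene itself. Of the summed counts of Rpl3, which forms part of the peptidyl transferase centre, and its pseudogene rows, 2.55% lay on the Rpl3 row in wild-type total and 11.7% in wild-type polysomal RNA. In the knockout the shares on the Rpl3 row were 1.23% in total and 7.79% in polysomal RNA. For Rpl9 the share on its own row was 6.57% in wild-type total RNA, for Rpl14 it was 34.9%, and for Rpl32 and Rpl39 it was 99.3% and 99.6%. Only pseudogene rows named after a gene were counted, so a high share does not show that no reads went to rows of other names. The plot of genes beside their pseudogene rows shows these values per kilobase.

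**Figure D1:**
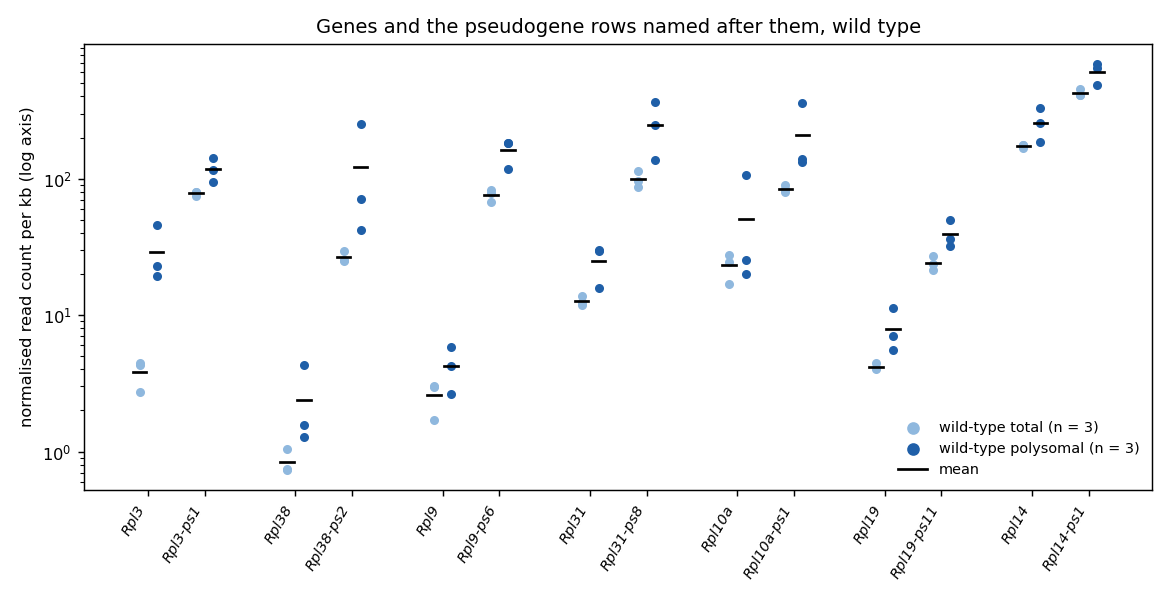
Normalised read count per kilobase of gene length (log axis) for 7 genes and the pseudogene row named after each that held more counts, in 3 wild-type total (light) and 3 wild-type polysomal (dark) libraries. Points are libraries and lines are means. Each pseudogene row lies above its gene, for Rpl3 at 78.4 against 3.82 in total RNA.

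The libraries held 13683674 to 27347878 recovered reads, and the limit that a count of 0 allows, 3 reads, corresponds to 0.0989 to 0.257 on the scale of the values, for counting error only. The 45 genes took 0.857 to 0.885% of the reads outside rRNA-like gene models in wild-type total RNA and 1.43, 2.31 and 1.20% in wild-type polysomal replicates 1 to 3. In the knockout the 43 genes listed there took 1.15 and 1.78% in the 2 total libraries and 2.09, 1.07 and 1.28% in the 3 polysomal ones. Reads on 4 gene models that collect ribosomal RNA sequence made up 5.86, 14.4 and 0.664% of wild-type polysomal replicates 1 to 3, 23.0, 32.4 and 0.381% of the knockout polysomal libraries, and 0.0532 to 0.134% of total RNA. Ddx27 itself was at 139 to 150.4 in wild-type total RNA and at 39.7 and 45.0 in knockout total RNA, so it was lower and still present. The myoblast factor Myod1 was at 137 to 177 in wild-type total RNA and at 0 to 1.13 in the 5 knockout libraries, while Myf5, Des and Cdh15 were present in all 11. Muscle differentiation markers (Myog, Myh3, Acta1, Ckm and Mylpf) differed between the groups, and their values stand beside the results below. The macrophage marker Cd68 was listed at 0.913 to 4.94 in all 11 libraries, and the other markers of blood, endothelial and epithelial cells (Ptprc, Pecam1, Cdh5, Epcam, Krt8) were not listed.

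Libraries of 1 group differed in how high the large-subunit genes stood as a set. Taken against the mean of total RNA of the same genotype on a log2 scale (normalised read count plus 1), the median over the 43 genes tested was 0.85, 1.63 and 0.33 in wild-type polysomal replicates 1 to 3. It was 0.48, −0.71 and −0.62 in knockout polysomal libraries 1 to 3, and −0.36 and 0.36 in knockout total libraries 1 and 2. Wild-type polysomal replicate 2 was the highest of its group for 39 of 45 genes, and knockout polysomal library 1 was the highest of its group for 41 of 43. The 2 knockout total libraries stood apart too: 38 of 43 genes were higher in library 2, with a median ratio of 1.73, against 47.1% of all genes and a median ratio of 0.973. The trend of the log2 difference on gene length moved with these medians. Per doubling of length it was −0.23, −0.53 and −0.14 in wild-type polysomal replicates 1 to 3, −0.16, 0.17 and 0.11 in the knockout polysomal libraries, and 0.11 and −0.11 in the knockout total ones. The large-subunit genes are short, with a median length of 1440 bases against 3636 for all genes tested, and the part of length in the results was tested only by removing its linear trend.

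**Figure D2:**
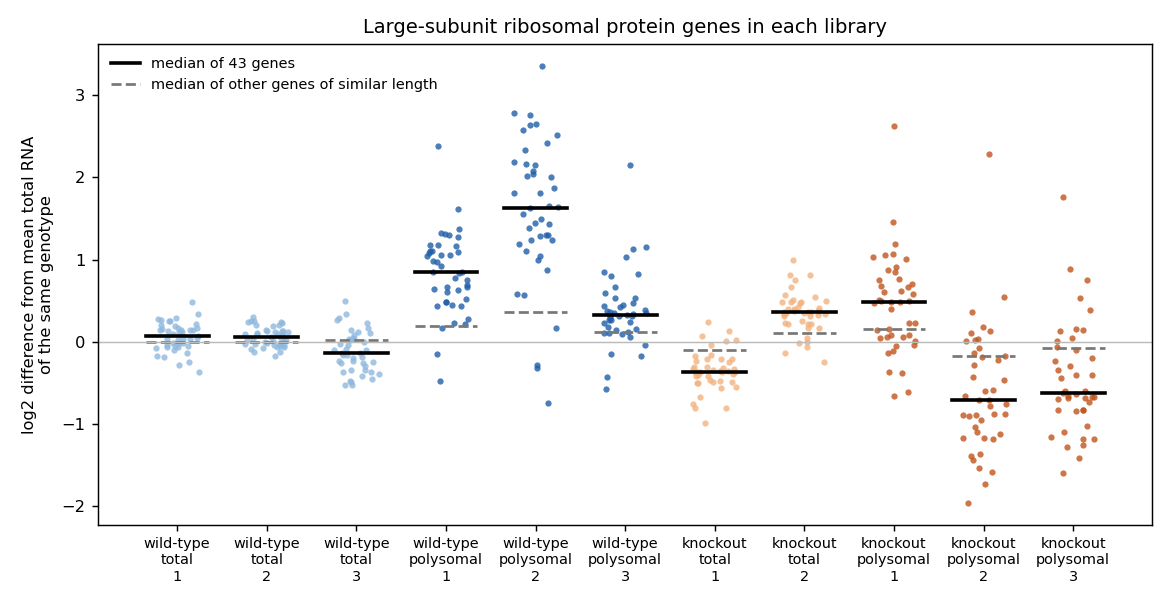
Log2 difference of each of 43 large-subunit genes from the mean of total RNA of the same genotype, by library. Points are genes, black lines their median and dashed lines the median of other genes of similar length. The median is 1.63 in wild-type polysomal replicate 2 and 0.33 in replicate 3, and 0.48 in knockout polysomal library 1 and −0.71 in library 2.

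In wild-type cells the large-subunit genes stood higher in polysomal than in total RNA. Of the 43 tested, 6 rose and none fell by limma's test with Benjamini-Hochberg adjustment over all genes, and 41 had a positive difference. Of all 12380 genes tested, 8.89% were higher and 13.8% lower in polysomal RNA. The median log2 difference of the 43 was 0.89, against −0.02 for all genes. Other genes of similar length (786 to 3204 bases, the 10th to 90th percentile of the 43 tested) had a median of 0.23, and 13.2% of these 4656 were higher and 7.45% lower. At an unadjusted p under 0.05, 28 of the 43 were higher and none was lower, against 17.7% of all genes higher and 21.6% lower. With edgeR and DESeq2 none of the 43 was lower either, while 13% and 17.9% of all genes were. The 3 polysomal and 3 total values did not overlap for 29 genes that were higher and 1 that was lower, while 23.2% of all genes were higher and 27.7% lower without overlap. Rpl29 and Rpl38 were not tested, with values of 0.281 to 0.687 and 0.368 to 0.528 in total RNA and of 0.725 to 1.16 and 0.639 to 2.18 in polysomal RNA. The count of 6 changed when single libraries were left out. It was 5 without polysomal replicate 1, 23 without replicate 2 and 26 without replicate 3, while 4.85%, 22.6% and 10.8% of all genes were higher in the same fits. Without total RNA replicate 1, 2 or 3 it was 1, Rpl3, while 0.938%, 1.19% and 0.683% of all genes were higher.

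Markers of muscle differentiation moved the other way in the same libraries. Of the 5 in the list, Myog, Myh3, Acta1, Ckm and Mylpf, all fell in wild-type polysomal RNA, with log2 differences between −3.47 (Ckm) and −4.93 (Myh3). Their summed level was 269, 273 and 719 in total replicates 1 to 3 and 15.6, 27.5 and 17.3 in polysomal ones, and Myh3 was at 0 in polysomal replicate 2. Of 6 myoblast markers, 5 fell and none rose, with a summed level of 3610 to 4927 in total and 1176 to 1268 in polysomal RNA. Total replicate 3, the highest of its group for both marker lists, had a median of −0.14 for the large-subunit genes, the lowest of its group. The part of these markers in the result was not tested.

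The genes of the P stalk, which binds elongation factors during each round of translation, gave none of these 6. Rplp1 was at 609.8, 712 and 887 in wild-type total replicates 1 to 3 and at 1019, 4338 and 1055 in polysomal ones. All 3 polysomal values exceeded the total ones, but replicate 2 was far above the other two, and the log2 difference of 1.20 ± 0.54 (SE) did not pass (adjusted p = 0.142). Rplp2, its partner in the stalk dimers, was at 106, 94.3 and 69.6 in total RNA and at 216, 614 and 96.1 in polysomal RNA, with a difference of 1.39 ± 0.60 (adjusted p = 0.128). Rplp0, the base of the stalk, overlapped between the fractions, at 1198 to 1585 in total and 1217 to 3308 in polysomal RNA (0.46 ± 0.37, adjusted p = 0.378). Rpl12, which sits at the stalk base, overlapped as well (0.89 ± 0.58, adjusted p = 0.282).

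The 5S particle pair did not pass either. Rpl11 (chr4:136049354-136053393, GRCm38.p6) was at 4.33, 4.31 and 2.20 in total RNA and at 10.1, 14.7 and 4.39 in polysomal RNA, a difference of 1.13 ± 0.42 (adjusted p = 0.0894). Rpl5 (chr5:107900508-107909005) was at 23.8, 22.6 and 13.7 in total RNA and at 35.9, 22.1 and 23.9 in polysomal RNA, so that its fractions overlapped (0.43 ± 0.28, adjusted p = 0.285).

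Around the peptidyl transferase centre, Rpl3 and Rpl10 lay at opposite ends of all 43 genes. Rpl3 (chr15:80077781-80083406) had 5.81, 5.97 and 3.70 in total RNA and 30.7, 61.3 and 26 in polysomal RNA. Every polysomal value was more than 4 times every total value, and Rpl3 rose by 2.63 ± 0.35 on the log2 scale (adjusted p = 0.00393), the highest of the 43. With its pseudogene rows added, an alternative chosen after the data were seen, the difference was 0.70 ± 0.20 (adjusted p = 0.0466). Rpl10 (chrX:74270816-74273135), a protein added late in the maturation of the subunit, had 9.40, 8.62 and 7.45 in total RNA and 5.77, 6.77 and 5.33 in polysomal RNA. Its polysomal values all lay below its total values, and the difference of −0.45 ± 0.20 did not pass (adjusted p = 0.133). Rpl8 was at 2090 to 2182 in total and at 3429, 5034 and 2746 in polysomal RNA, with no overlap (0.77 ± 0.25, adjusted p = 0.0641), and Rpl4 stood at 0.48 ± 0.17 (adjusted p = 0.0831).

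Of the 4 genes at the interface with the small subunit, 2 rose. Rpl23 (chr11:97777526-97782439) went from 99.7, 98.4 and 112 in total RNA to 224, 270.5 and 183 in polysomal RNA. The groups were well apart, and the log2 difference was 1.11 ± 0.19 (adjusted p = 0.00884). Rpl30 (chr15:34440505-34443276) went from 79.4, 75.8 and 59.0 to 161, 486 and 128. Replicate 2 was again the highest by far, and the difference was 1.59 ± 0.47 (adjusted p = 0.0471). Rpl24, which forms a bridge between the subunits, overlapped between fractions, at 15.3 to 21.9 in total and 14.3 to 24.8 in polysomal RNA (0.13 ± 0.26, adjusted p = 0.735), and Rpl41 stood at 0.83 ± 0.53 (adjusted p = 0.275).

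The other genes called lie in the body of the subunit. Rpl7 (chr1:16101295-16104433) was at 163, 168 and 170.1 in total RNA, the closest agreement between replicates among the genes called, and at 255, 471 and 371 in polysomal RNA. It rose by 1.08 ± 0.24 on the log2 scale (adjusted p = 0.0192). Rpl34 (chr3:130726827-130730398) rose by 1.58 ± 0.45 (adjusted p = 0.0426), from 26.8, 25.4 and 18.0 to 58.0, 149 and 41.0. Rpl35a (chr16:33056453-33060189) rose by 1.20 ± 0.35 (adjusted p = 0.046), from 34.6, 35.6 and 31.4 to 67.7, 140.3 and 51.6. In both, all polysomal values exceeded all total values and replicate 2 was the highest. Rpl15, at −0.01 ± 0.36 (adjusted p = 0.992), was the only one besides Rpl10 with a negative difference: its polysomal values of 80.1, 30.2 and 55.6 spread around total values of 56.8, 60.7 and 39.7. The 8 genes around the mouth of the exit tunnel (Rpl17, Rpl19, Rpl22, Rpl23a, Rpl26, Rpl31, Rpl35 and Rpl39), where the nascent chain leaves the ribosome, had differences of 0.67 to 1.14, and none passed. The 2 genes at the L1 stalk and the exit site for tRNA, Rpl10a and Rpl36a, stood at 0.72 ± 0.58 and 1.30 ± 0.43, and the 19 genes of the body ranged from −0.01 to 1.58.

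**Figure D3:**
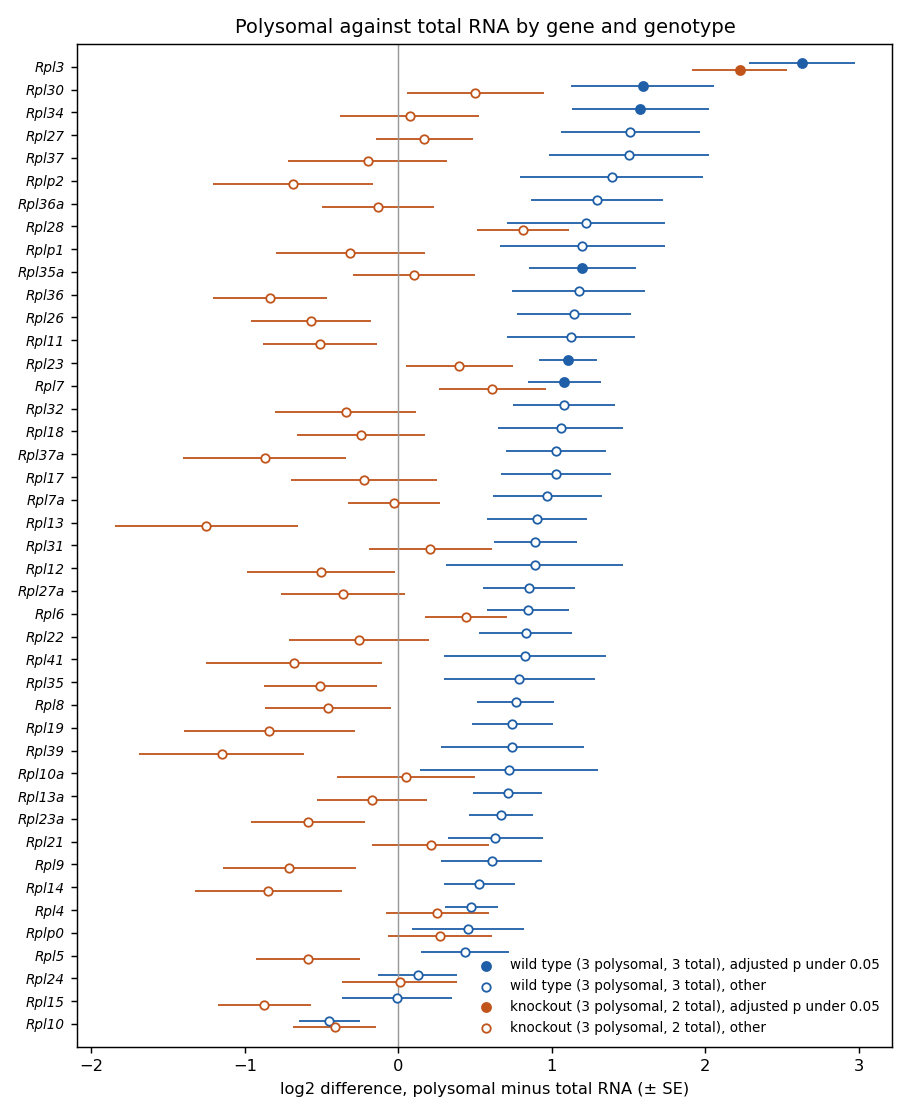
Log2 difference between polysomal and total RNA for 43 large-subunit genes, sorted by the wild-type value, with the standard error as bars. Blue is wild type (3 against 3 libraries), orange is knockout (3 against 2), and filled points passed an adjusted p of 0.05. The wild-type points lie to the right of 0 for 41 genes, the knockout points for 15, and Rpl3 is filled in both.

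In Ddx27 knockout cells the median of the same genes was not above 0 in polysomes. Of the 43 tested, 1 rose and none fell (limma, adjusted p), while 0.911% of all 12070 genes were higher and 1.85% lower. The median log2 difference was −0.26, with 15 genes positive and 28 negative, against 0.04 for all genes and −0.04 for other genes of similar length, of which 0.727% were higher and 1.41% lower. At an unadjusted p under 0.05, 2 genes were higher and 1 was lower, against 12.1% and 10.7% of all genes. DESeq2 called 1 gene, Rpl15, lower, while 6.22% of all genes were lower in that fit. By edgeR none of the 43 was lower, while 1.84% of all genes were. Fractions did not overlap for 2 genes that were higher (Rpl3 and Rpl28) and 2 that were lower (Rpl10 and Rpl15), against 22.3% and 18.3% of all genes. The outcome depended on single libraries. Without knockout polysomal library 1, 10 genes fell (Rpl9, Rpl12, Rpl13, Rpl14, Rpl15, Rpl36, Rpl37, Rpl37a, Rpl39 and Rplp2) and 1 rose, the median being −0.68, while 6.41% of all genes were lower and 7.28% higher in the same fit. Without knockout total library 1 the median was −0.67 and without knockout total library 2 it was 0.07, with no large-subunit gene called in either case and at most 0.0419% of all genes called in 1 direction, and the lone total library was then assumed to vary like the other group. The 5 differentiation markers summed to 140 and 122 in the knockout total libraries and to 10.4, 6.93 and 9 in the polysomal ones, and the 3 of them tested (Myog, Acta1, Mylpf) all fell; the part of this in the result was not tested.

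Rpl3 was again the gene that passed. It had 4.52 and 4.05 in knockout total RNA and 31.6, 24.7 and 16.8 in polysomal RNA, so every polysomal value was at least 3 times every total value. It rose by 2.22 ± 0.31 on the log2 scale (adjusted p = 0.0141). The call was lost without either total RNA library (adjusted p = 0.114 and 0.136), and with the pseudogene rows added the difference was −0.13 ± 0.39 (adjusted p = 0.877). Rpl28 was next at 0.81 ± 0.30 (adjusted p = 0.162), from 8.11 and 8.66 to 20.4, 11 and 16.3, and Rpl7 stood at 0.61 ± 0.35 (adjusted p = 0.334).

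In the genes with the lowest knockout differences, Rpl13 and Rpl39, the 2 total libraries were far apart. Rpl13 had 119.8 and 477 in total RNA and 184, 60.6 and 89.1 in polysomal RNA, a difference of −1.25 ± 0.60 (adjusted p = 0.255). Rpl39, a small protein lining the exit tunnel, had 225 and 572 in total RNA and 333, 107 and 117 in polysomal RNA (−1.15 ± 0.54, adjusted p = 0.246). In both genes polysomal library 1 lay between the 2 total values, and the other 2 polysomal libraries lay below them. Rpl15 was more even, with 91.3 and 163 in total and 79.2, 53.5 and 68.1 in polysomal RNA, and stood at −0.87 ± 0.30 (adjusted p = 0.144). Rpl10 was at −0.42 ± 0.27 (adjusted p = 0.396), close to its wild-type value. In the P stalk Rplp0 stood at 0.27, Rplp1 at −0.31, Rplp2 at −0.69 and Rpl12 at −0.50, and in the 5S particle Rpl5 stood at −0.59 and Rpl11 at −0.51, with none past the test.

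Taken with its sign, the polysomal difference was lower in the knockout than in the wild type for 42 of 43 large-subunit genes. For no gene of the 43 did the difference between genotypes pass limma's test. The median of knockout minus wild-type enrichment was −1.25 on the log2 scale, against 0.09 for all genes and −0.24 for other genes of similar length. Of all 12474 genes, 0.224% had a higher and 0.0401% a lower enrichment in the knockout by limma, and 0.0846% and 0.0635% of the 4728 of similar length. At an unadjusted p under 0.05, 14 of the 43 were lower and none higher, against 9.04% of all genes lower and 11.8% higher. DESeq2 called 2 lower, Rpl13 and Rpl36, while 3.66% of all genes were lower in that fit. By edgeR none of the 43 was called, while 0.0722% of all genes were lower. The smallest adjusted p belonged to Rpl36, at −2.01 ± 0.63 (adjusted p = 0.135). Rpl36 was at 2.75, 3.10 and 2.53 in wild-type total and 6.85, 16 and 3.71 in polysomal RNA, and at 7.85 and 10.9 in knockout total and 8.30, 3.51 and 3.53 in polysomal RNA. Rpl13 stood at −2.15 ± 0.77, Rplp2 at −2.08 ± 0.92 and Rpl37a at −1.90 ± 0.71, with adjusted p-values of 0.169, 0.229 and 0.178. The genes that differed least were Rpl10 at 0.03 ± 0.30, Rpl24 at −0.12 ± 0.48, Rplp0 at −0.18 ± 0.52 and Rpl4 at −0.22 ± 0.34. Around the peptidyl transferase centre (Rpl3, Rpl4, Rpl8, Rpl10) the median was −0.32, against −1.45 in the P stalk, −1.28 at the tunnel mouth and −1.30 in the body, and these groups were not tested against each other. Rpl3 stood at −0.41 ± 0.49 on its own row and at −0.83 ± 0.47 with its pseudogene rows added. Of the 5 differentiation markers only Myh3 was called, with a higher polysomal difference in the knockout (log2 difference 3.47). Its polysomal values were at or near 0 in both genotypes, at 0 to 0.415 in wild type and 0 to 0.129 in knockout. In total RNA Myh3 was at 24.3 to 67.7 in the wild type and at 3.40 and 0.971 in the knockout. None of the 6 myoblast markers was called, and the part of both marker lists was not tested. Across the 43 genes the wild-type and knockout differences had a Pearson r of 0.50 and a Spearman rho of 0.31, over genes that share libraries and are not independent.

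In total RNA the large-subunit genes stood higher in the knockout than in the wild type. With all 11 libraries put on 1 scale, 3 of 43 rose and none fell, against 4.71% of all 12460 genes higher and 5.79% lower. The median log2 difference was 0.87, with 40 positive and 3 negative (Rpl3, Rpl24 and Rpl28), against −0.01 for all genes and 0.24 for other genes of similar length, of which 7.52% were higher and 3.2% lower. At an unadjusted p under 0.05, 16 were higher and none was lower, against 14.5% of all genes higher and 14.9% lower. With edgeR and DESeq2, 5 and 13 were called higher, while 5.39% and 10.1% of all genes were higher. Neither called any of the 43 lower, while 4.94% and 9.7% of all genes were lower. The genotypes did not overlap for 36 genes higher in the knockout and 1, Rpl28, that was lower, while 31.2% of all genes were higher and 33.2% lower without overlap. This comparison uses the same total RNA libraries as the polysomal ones above, so the results are not independent of each other. Without knockout total library 2 the median was 0.54 and none of the 43 was called, while 0.638% of all genes were higher. Without library 1 the median was 1.36 with 7 called, while 4.87% of all genes were higher. Without wild-type total replicates 1, 2 and 3, 1, 1 and 0 of the 43 were called, and 1.61%, 1.58% and 1.34% of all genes were higher. Muscle markers moved the other way: the 5 differentiation markers summed to 258, 262 and 696 in wild-type and 147 and 128 in knockout total RNA on the common scale, where Myh3 and Myog fell, with log2 differences of −3.50 and −1.95, and the other 3 did not pass the test. Of the 6 myoblast markers, 4 fell and 1 rose, with summed levels of 3465 to 4773 and of 1552 and 1750. The part of these markers in the result was not tested. In these bulk samples, more RNA per cell and more cells of a kind cannot be told apart.

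Rpl5, of the 5S particle, was the gene with the smallest adjusted p. On the common scale it had 22.8, 21.7 and 13.3 in wild-type total RNA and 42.1 and 70.6 in knockout total RNA. Both knockout values exceeded all wild-type values, and Rpl5 rose by 1.49 ± 0.34 (adjusted p = 0.02). Rpl11, its partner, had 4.16, 4.14 and 2.13 against 7.47 and 13.7, a similar difference of 1.35 ± 0.47 that did not pass (adjusted p = 0.0849). Rpl27a (chr7:109519195-109522369) had 39.0, 38.7 and 28.5 against 82.7 and 148 and rose by 1.63 ± 0.42 (adjusted p = 0.0321). Rpl15 (chr14:18267823-18270986) had 54.5, 58.3 and 38.4 against 95.7 and 171 and rose by 1.35 ± 0.37 (adjusted p = 0.0399). In all of these knockout library 2 was the higher one, and the 3 calls were lost without it: the differences were then 1.13 for Rpl5, 1.22 for Rpl27a and 0.93 for Rpl15 (adjusted p = 0.28, 0.36 and 0.428).

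Larger differences that did not pass were those of Rpl13, at 61.0, 61.6 and 82.0 against 126 and 499.9 (1.88 ± 0.59, adjusted p = 0.0627), and of Rpl39, at 99.3, 97.6 and 117 against 236 and 600.1 (1.84 ± 0.62, adjusted p = 0.0783). In both, knockout library 2 was far above library 1. Around the peptidyl transferase centre Rpl3 stood at −0.10 ± 0.39, Rpl10 at 0.02 ± 0.23 and Rpl4 at 0.37 ± 0.26, and Rpl8 at 0.85 ± 0.36 (adjusted p = 0.144). With its pseudogene rows added Rpl3 was positive, at 0.81 ± 0.36 (limma, adjusted p = 0.156). The 8 genes of the tunnel mouth ranged from 0.73 to 1.84, those of the P stalk from 0.16 for Rplp0 to 1.35 for Rplp2, and those of the interface from −0.37 for Rpl24 to 1.31 for Rpl41, with none past the test.

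**Figure D4:**
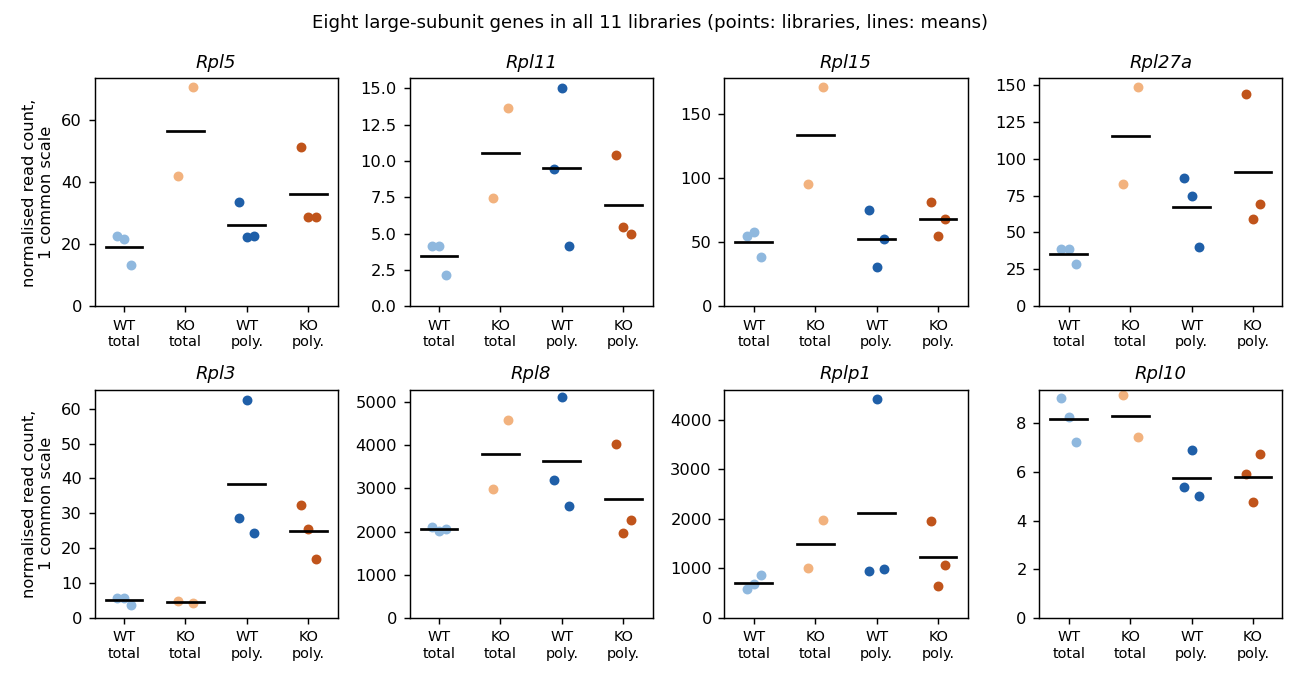
Normalised read counts on 1 common scale for 8 large-subunit genes in all 11 libraries, by group. WT is wild type, KO is knockout, points are libraries and lines are means, with axes that start at 0. For Rpl5, Rpl11, Rpl15 and Rpl27a both knockout total libraries lie above all 3 wild-type total ones, while in polysomal RNA the genotypes overlap for all 8.

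In polysomal RNA no large-subunit gene passed limma's test between genotypes, and the 3 wild-type and 3 knockout values overlapped for all 43. Of all genes, 4.82% were higher and 3.5% lower in knockout polysomes, and 12.6% and 11% were so without overlap. None of the 43 had an unadjusted p under 0.05, against 12.5% of all genes higher and 10.7% lower. With edgeR and DESeq2 none of the 43 was called. In those fits 4.67% and 7.81% of all genes were higher and 3.27% and 6.6% lower. The median was −0.26, with 9 genes positive and 34 negative, and −0.07 for other genes of similar length, of which 4.26% were higher and 3.98% lower. It was 0.09 without wild-type polysomal replicate 2 and −0.66 without knockout polysomal library 1, so its direction rested on wild-type replicate 2. Of the 6 myoblast markers 4 fell and none rose here, and none of the 5 differentiation markers was called; their part was not tested. The widest values were −0.82 ± 0.43 for Rpl27 (adjusted p = 0.285) and 0.44 ± 0.33 for Rpl15 (adjusted p = 0.465). Rpl8 had 3204, 5131 and 2581 in wild-type and 4035, 1961 and 2277 in knockout polysomes, and Rplp1 had 952, 4421 and 991 against 1955, 644 and 1063. In each group 1 library was far above the other two, wild-type replicate 2 and knockout library 1.

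Other ribosomal protein genes had similar values. Among 30 genes of small-subunit proteins, 6 rose and none fell in wild-type polysomes, with a median of 0.98, and in the knockout none was called, with a median of −0.28. Among 45 genes of mitochondrial large-subunit proteins, whose ribosomes translate inside mitochondria, 16 rose and none fell in the wild type (median 0.83), and none was called in the knockout (median −0.16). By library the small-subunit genes had medians of 0.71, 1.82 and 0.28 in wild-type polysomal replicates 1 to 3 and of 0.49, −0.76 and −0.49 in the knockout ones. The corresponding medians of the mitochondrial genes were 0.69, 1.09 and 0.43, and 0.20, −0.42 and −0.28. Of 5 paralogs and fusion genes of the large subunit, Rpl7l1, a relative of Rpl7, rose in wild-type polysomes (1.01 ± 0.16, adjusted p = 0.00637), and Rpl22l1 and Rpl36al stood at 1.38 and 1.35 without passing.

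Of 13 dedicated chaperones and late assembly factors of the large subunit, 4 rose and none fell in wild-type polysomes: Mrto4, which holds the place of the P stalk in precursors, by 1.08 ± 0.17, Bccip, a chaperone of Rpl23, by 0.97 ± 0.17, Rsl24d1, which holds the place of Rpl24, by 0.84 ± 0.18 and Grwd1, a chaperone of Rpl3, by 0.59 ± 0.17 (adjusted p = 0.00685, 0.00844, 0.017 and 0.0467). None of the 13 was called in the knockout. Between genotypes in polysomal RNA 3 of them fell in the knockout: Grwd1 by 1.21 ± 0.22, Mrto4 by 0.97 ± 0.25 and Rrs1, a factor needed to build the 5S particle into the subunit, by 0.74 ± 0.17 (adjusted p = 0.00587, 0.0342 and 0.0201). In total RNA none of the 13 was called. Of 18 other TOP mRNAs and their regulators, Btf3, Naca, Npm1 and Gas5 rose in wild-type polysomes by 1.11 to 1.58 and the elongation factor Eef2 fell by 0.83 ± 0.19 (adjusted p = 0.0207). In the knockout none of the 18 was called, and Larp1 stood at −0.58 in the wild type and −0.41 in the knockout.

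Genes with and without the pyrimidine runs shown above had similar medians in wild-type polysomes. The 19 tested genes with a run had a median of 0.85 and 2 called, and the 14 with an entry but no run had a median of 0.86 and 1 called. In the knockout the medians were −0.24 and −0.46, and in total RNA, knockout against wild type, they were 0.91 and 1.18. Small nucleolar RNAs, which guide the modification of ribosomal RNA, are annotated inside 19 of the 45 genes (42.2%), against 1.80% of protein-coding genes. Genes with and without one had medians of 0.89 and 0.96 in wild-type polysomes, of −0.22 and −0.29 in knockout polysomes and of 0.75 and 0.98 in total RNA between genotypes. These splits were described and not tested.

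In the authors' deposited table, whose fold changes come from their own fit, 28 of the 45 genes had an FDR below 0.05 and a higher level in wild-type polysomes and none a lower one, against 13% of all genes higher and 14.3% lower. Their median log2 fold change in the authors' deposited table was 1.12. In the authors' deposited table for the knockout, 1 of 43, Rpl3, was higher and none was lower, against 3.42% of all genes higher and 4.84% lower, and the median was −0.20. For Rpl3 the authors' deposited table gives a log2 fold change of 2.92 in the wild type and 2.51 in the knockout.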

How the data were processed

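Total and polysomal RNA of wild-type and Ddx27 knockout C2C12 cells was extracted with Trizol and made into Illumina libraries, per the labels' protocols. STAR, HTSeq, edgeR and the build mm10 were used per the submitters' processing notes, with no versions or roles given. For each genotype the authors deposited 1 table whose columns hold a signal, here called normalised read count. In each library, dividing by a single factor turned 100% of values into whole reads (tolerance 0.001 reads). The unit planned for was CPM, and its test was kept. The authors' tables also give gene lengths in bases, log2 fold changes and p-values with FDR. Knockout columns match sample titles by group only.

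Genes that reached 1 in 3 or more fitted libraries were tested with limma 3.58.1 (R 4.3.3) after adding 1 and taking log2, with a mean-variance trend, Benjamini-Hochberg adjustment over all genes and a threshold of 0.05; adding 1 understates changes of low genes. Polysomal was compared with total RNA per genotype, the difference of both contrasts over 4 group means, and genotypes within a fraction on recovered reads scaled by the median of ratios. Genotype fits used the 12590 shared genes. Levels are means of deposited values with SD. The similar-length background holds the other tested genes within the 10th to 90th percentile of the tested members' lengths. The scripts were tested on simulated data. Alternatives were a pseudocount of 0.25, no filter, quantile normalisation, removal of the length trend, edgeR 4.0.16 and DESeq2 1.42.0 on recovered reads, each library left out, and a replicate block.

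The members, their role groups and the related lists were chosen with earlier results of these data known. Named with full values are genes called in any contrast, the 3 highest and 3 lowest of each within-genotype contrast, the P stalk, the 5S particle and the extremes per length. Rpl27, Rpl28, Rpl36 and genes of small or wide difference were named after their values were seen. The pseudogene sums, the pyrimidine search and the snoRNA count were added after the tables were seen, each with 1 definition. Genome positions and sequences are from RefSeq on GRCm38.p6, in which all 45 symbols matched.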

Additional observations from a re-analysis of the deposited data

How the results depend on the processing

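The median over the 43 large-subunit genes kept its sign under each alternative that used all libraries: it ran from 0.61 to 1.17 for wild-type polysomal against total RNA, from −0.26 to −0.15 for the knockout, from −1.41 to −0.86 for the genotype difference, from 0.59 to 1.08 for total RNA between genotypes and from −0.31 to −0.24 for polysomal RNA. Removal of the length trend gave the smallest medians in size for wild-type polysomal against total RNA, the genotype difference and total RNA between genotypes. They were 0.61, −0.86 and 0.59, against 0.89, −1.25 and 0.87 in the main fits. Counts of genes called moved more, and the cause was not tested. In wild-type polysomes the 6 higher genes became 13 with quantile normalisation, 11 with edgeR, 30 with DESeq2 and 12 with the replicate block. In the same fits 11.7%, 10.2%, 17.4% and 5.68% of all genes were higher, against 8.89% in the main fit. When libraries were left out the count was 1 to 26, while 0.683% to 22.6% of all genes were higher. The gene called lower there numbered 1, Rpl10, with the length trend removed and 0 to 1 with libraries left out. Of all genes 13.3% were lower with the trend removed and 3.11% to 24.6% with libraries left out. In knockout polysomes higher genes numbered 2 with the length trend removed, while 5.21% of all genes were higher. With pseudogene rows added they numbered 0 (Rpl3 then at −0.13), while 0.903% of all genes were higher. With a polysomal library left out they numbered 1 each time, while 0.135% to 7.28% of all genes were higher. Lower genes numbered 1 with DESeq2, while 6.22% of all genes were lower. With a polysomal library left out lower genes numbered 0 to 10, while 0.168% to 6.41% of all genes were lower. Lower genes in the genotype difference numbered 2 with DESeq2, while 3.66% of all genes were lower. In total RNA between genotypes the 3 higher genes became 6 with the length trend removed, 5 with edgeR, 13 with DESeq2 and 0 to 7 with libraries left out. In this comparison 5.71% of all genes were higher with the length trend removed, 5.39% with edgeR and 10.1% with DESeq2. The main fit had 4.71%. The shares with a library left out are given with the total RNA results above. No pairing of wild-type samples by replicate number was evident: deviations of same-numbered total and polysomal libraries correlated at 0.21, −0.22 and −0.07. These correlations cannot show whether the samples were paired, and the block moved the count as given. The knockout columns carry no numbers from the labels, so no block could be fitted there. The comparisons with knockout total RNA rest on 2 libraries, which differ by a median ratio of 1.73 in these genes.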
